A study of Mus musculus with 16 samples.

Results

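Transcripts of 8 genes were followed through liver regeneration in mice with and without the histone chaperone HIRA in hepatocytes: the 4 genes of the albumin family, Alb, Afp, Afm and Gc, and 4 further transcripts of the fetal liver, H19, Igf2, Gpc3 and Dlk1. They were chosen by gene symbol from the 55421 rows of the count table, and each symbol matched 1 row. All 8 were among the 23018 genes with at least 10 counts over the 16 libraries, the only filter before testing. Dlk1 reached that minimum with 11 counts and Igf2 with 92.

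All 16 libraries were bulk, poly-A-selected RNA of livers from male mice that had received an AAV8 virus at the age of 6 months, 4 libraries in each of 4 groups. The HIRA KO groups held mice of genotype HIRA fl/fl given AAV8 Tbg-Cre and wildtype mice given AAV8-Tbg-saCAS9/U6-sgRNA-HIRA. The control groups held wildtype mice given AAV8 Tbg-Cre and wildtype mice given AAV8-Tbg-saCAS9/U6-sgRNA-Rosa26. Each group had 2 libraries of each of these 2 approaches, so every control animal also carried a virus with a nuclease or recombinase. The Tbg promoter drives expression in hepatocytes, and the other cells of the liver keep HIRA. Part of the liver was resected 4 weeks after injection and served as the sample before regeneration. The liver left in place was taken 5 days later as the sample after regeneration, so lobe, mode of collection and time changed together and cannot be told apart. The columns of the tables name genotype and time but neither mouse nor approach, so each library was used only as a replicate of its group, numbered 1 to 4 as in the column names.

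Total counts ran from 15103059 to 21738619 per library, and mitochondrial genes took 4.14% to 6.97% of them. The targeted gene, Hira, had 47 to 82 counts in the HIRA KO libraries and 87 to 131 in the control libraries. In CPM, counts scaled to library size with TMM factors, it lay between 3.04 and 4.56 in HIRA KO and between 4.99 and 6.29 in control, without overlap. Libraries 1 and 2 of HIRA KO before regeneration and libraries 1 and 2 of HIRA KO after it lay apart from all others on the second principal component (26.5% of the variance). Among hepatocyte markers other than the members, Ttr lay between 2927 and 9649 CPM and Cps1 between 1450 and 6720 CPM over the 16 libraries. Before regeneration their means were higher in HIRA KO than in control (7704 and 5393 CPM for Ttr, 4693 and 3734 for Cps1). Those of Apoa1, Serpina1a, Glul, Apoe and Hnf4a were lower (4064 and 7330, 809 and 1243, 595 and 1036, 14116 and 16843, 614 and 689 CPM).

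The albumin family encodes carriers of the blood that hepatocytes secrete. Albumin takes over from alpha-fetoprotein as the main plasma protein around birth, when Afp is silenced in hepatocytes by repressors such as Zhx2 and Zbtb20. H19 is an imprinted long non-coding RNA and Igf2, next to it, an imprinted growth factor of the fetus. Gpc3, a cell-surface proteoglycan, and Dlk1, a membrane protein related to Notch ligands and imprinted together with Meg3 and Rian, mark the fetal liver as well. Several of these transcripts return in liver cancer, and AFP and GPC3 serve there as markers.

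The members spanned the whole range of transcript levels in this tissue. On the deposited FPKM scale, which corrects for transcript length, Alb had a mean of 41775 over the 16 libraries and was the gene with rank 2 of 55421. Gc followed with 3326 FPKM (rank 38) and Afm with 105 FPKM (rank 777). The fetal members were far lower. H19 had a mean of 2.68 FPKM, Afp 1.28, Gpc3 0.799 and Dlk1 0.0425, so that the level of Afp per length was close to those of H19 and Gpc3, not to those of its own family. These low means do not separate. The ranges over libraries were 0.0724 to 9.79 FPKM for H19, 0.533 to 2.67 for Afp and 0.0890 to 5.39 for Gpc3. Igf2 has no firm place in this order, since its mean was 1.95 FPKM but its counts divided by exon length gave only 0.0478 CPM per kilobase. In 6 libraries the FPKM table listed Igf2 above 0 where the count table had 0 reads. The annotated gene Gm49394 shares 3596 exon bases with Igf2 on the same strand, and the antisense gene Igf2os shares 98.

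Alb (ENSMUSG00000029368.10), Afp (ENSMUSG00000054932.6) and Afm (ENSMUSG00000029369.17) lie side by side on the plus strand of chromosome 5 (GRCm38, coordinates of GENCODE M21). Alb spans positions 90460897 to 90476602, Afp 90490737 to 90508907 and Afm 90518932 to 90553543, with 14134 bases between Alb and Afp and 10024 between Afp and Afm. Gc (ENSMUSG00000035540.12), the vitamin D binding protein, lies on the minus strand of the same chromosome at 89417522 to 89457898, 1002998 bases from Alb. The promoters of these 4 genes are shown because these genes share a chromosome and a tissue but not a level. Each is given from 150 bases before to 10 bases after the RefSeq start (GRCm38.p6), 5′ to 3′ on the strand of the gene. Capitals mark TATAAA and CCAAT on either strand, short motifs found near many start sites.
Alb promoter, chr5:90460720-90460879, plus strand: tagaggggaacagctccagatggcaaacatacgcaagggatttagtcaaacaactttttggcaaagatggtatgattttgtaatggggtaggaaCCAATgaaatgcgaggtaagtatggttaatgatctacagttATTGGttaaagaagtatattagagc
Afp promoter, chr5:90490564-90490723, plus strand: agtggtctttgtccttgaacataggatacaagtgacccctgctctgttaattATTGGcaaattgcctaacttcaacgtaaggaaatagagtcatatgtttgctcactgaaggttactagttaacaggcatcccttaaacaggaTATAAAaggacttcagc
Afm promoter, chr5:90518799-90518958, plus strand: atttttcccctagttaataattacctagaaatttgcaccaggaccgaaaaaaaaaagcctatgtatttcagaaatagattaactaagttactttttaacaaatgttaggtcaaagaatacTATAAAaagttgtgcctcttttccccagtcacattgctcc
Gc promoter, chr5:89457889-89458048, minus strand: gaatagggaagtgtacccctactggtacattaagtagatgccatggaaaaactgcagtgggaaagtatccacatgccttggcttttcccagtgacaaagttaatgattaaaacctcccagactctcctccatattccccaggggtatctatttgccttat
TATAAA was present in the promoters of Afp (position -7 relative to the RefSeq start) and Afm (-30), in those of no other member in the table, and in 13.6% of the 32851 promoters of 300 bases. CCAAT was present in the 300 bases of all 4 family promoters, in that of Gpc3 and 1 of the 4 of Igf2, and in 37.4% of all. In the stretches shown it lies at -56 and -15 in Alb and at -98 in Afp, while the matches of Afm and Gc lie further from the start. The GENCODE starts of Alb and Afp given above lie downstream of the RefSeq starts, and that of Afm lies upstream. The positions of the motifs therefore depend on the start used. A match is a description, and no match says only that these letters are not in the window. H19 was not in the promoter table.

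**Figure D1:**
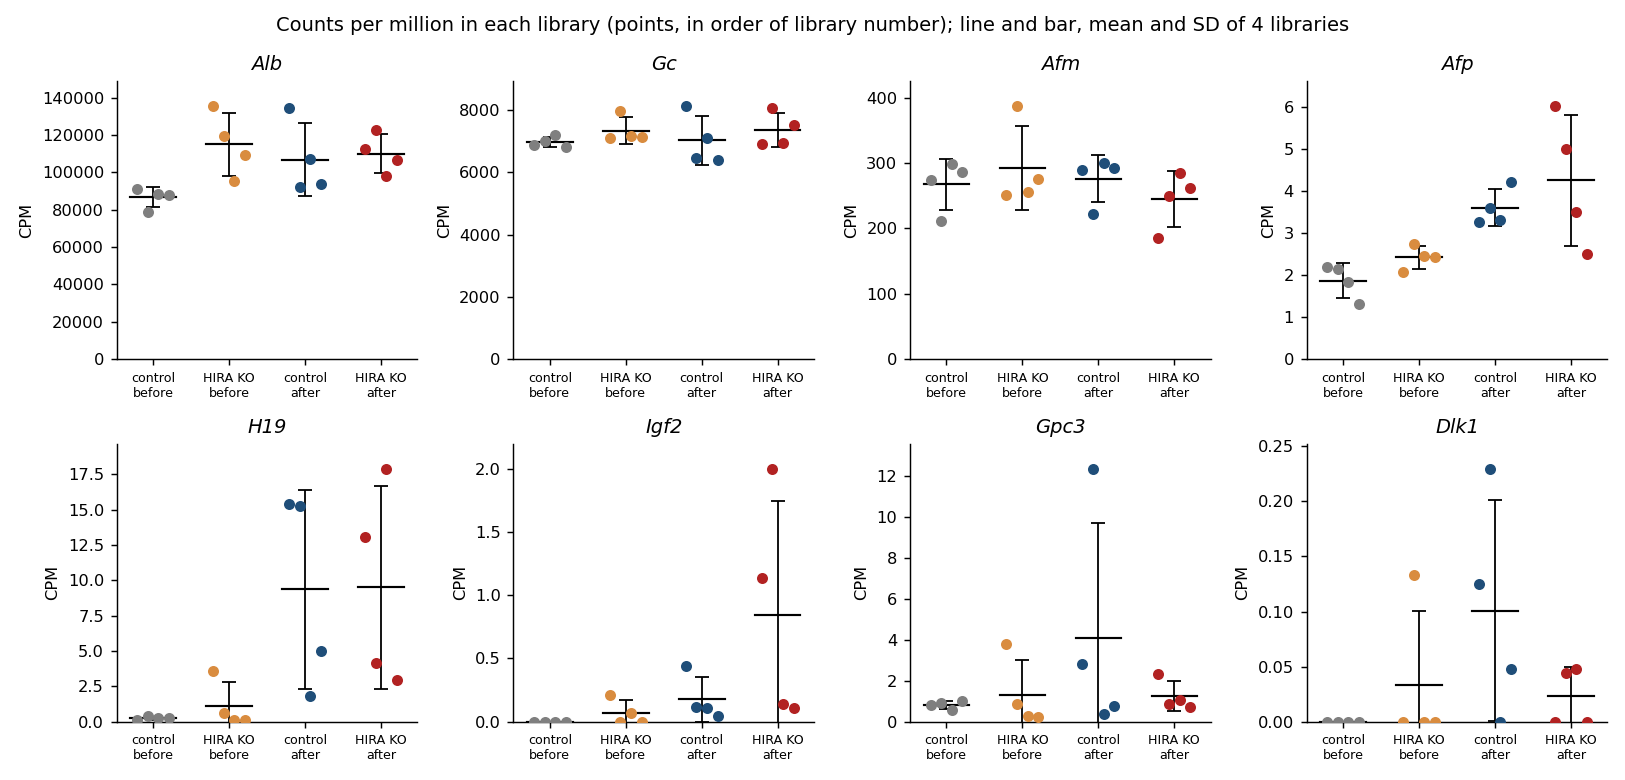
Level of each of the 8 genes in the 16 libraries, in CPM on linear axes from 0. Each point is a library, the line is the group mean and the bar the SD of 4 libraries, cut at 0. Afp and H19 in the control libraries after regeneration sit above all control libraries before it, while Gc and Afm overlap in all groups.

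The first question was what regeneration did to these genes in control livers. Afp and H19 rose, and none of the 8 genes fell. Afp was 3.60 ± 0.441 CPM after and 1.87 ± 0.410 CPM before regeneration (mean ± SD, n = 4), and H19 9.36 ± 7.01 and 0.235 ± 0.113 CPM. The abundant adult carriers Alb, Gc and Afm did not pass the test, nor did Igf2, Gpc3 and Dlk1. A gene is called here at an adjusted p under 0.05, with edgeR as the test and p-values adjusted by Benjamini-Hochberg over the 23018 genes. In this comparison 10.2% of all genes were called, 6.04% higher and 4.17% lower, and 2 of 8 members were called, both higher. Over the 6 members with reads in every group (all but Igf2 and Dlk1) the median log2 fold change was 0.62, and 0.52 without control library 2 after regeneration, while that of all genes was 0.00. The groups did not overlap for 4 of 8 members (Alb, Afp, H19 and Igf2, all higher after), where 19% of all genes did not overlap.

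Afp had 44, 40, 32 and 22 counts in the control libraries 1 to 4 before regeneration, which is 2.19, 2.15, 1.83 and 1.30 CPM. After it, the counts were 52, 63, 61 and 88, or 3.26, 3.61, 3.32 and 4.22 CPM. The groups did not overlap, but even the highest library held only 88 reads of a gene whose neighbour Alb had 1947925 in the same library. The log2 fold change was 0.94 ± 0.251 (SE) with an edgeR adjusted p of 0.0221. The call was lost without control library 3 (edgeR adjusted p 0.0519) or 4 (0.0768) before regeneration, or without control library 4 after it (0.0876). It was also lost on the deposited FPKM, where limma gave 0.35 on the log2(FPKM + 1) scale (adjusted p 0.156) and 0.61 with a pseudocount of 0.1 (0.140).

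H19 (ENSMUSG00000000031.16, a long intergenic non-coding RNA on the minus strand of chromosome 7, 142575529 to 142578143) had only 2, 7, 4 and 4 counts in the control libraries before regeneration. After it there were 246, 266, 33 and 104 counts, or 15.4, 15.2, 1.80 and 4.99 CPM. Every library after regeneration was above every library before it, and the levels after it still differed widely among libraries. The log2 fold change was 5.28 ± 1.16 with an edgeR adjusted p of 0.0120. It remained called without any 1 of the 8 libraries, with log2 fold changes from 4.93 to 5.63, and in the other settings, where they ran from 2.00 on log2(FPKM + 1) to 5.31. The size of the change rests on 17 counts in all before regeneration.

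Igf2 (ENSMUSG00000048583.16, minus strand of chromosome 7, 142650766 to 142666816, 72622 bases from H19) had 0 counts in all 4 control libraries before regeneration and 7, 2, 2 and 1 after it. In the count table alone, the pooled level after regeneration was 4.21-fold a floor of 3 counts over the 4 libraries before it. The floor limits only the group without reads, so this ratio is not a lower bound. The edgeR adjusted p was 0.162. The FPKM table listed Igf2 above 0 in all 4 control libraries before regeneration, at 0.278 ± 0.125 (0.175 to 0.460), and at 0.794 ± 0.474 (0.321 to 1.42) after it, so the floor does not apply on that measure. DESeq2 called it (adjusted p 0.0403), and so did edgeR without the HIRA KO libraries that lay apart (0.0301). Dlk1 (ENSMUSG00000040856.17, plus strand of chromosome 12, 109452823 to 109463336) had 0 counts in all 4 libraries before and 2, 4, 0 and 1 after regeneration. This was 2.46-fold the same floor, again not a lower bound, with an edgeR adjusted p of 0.123.

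Gpc3 (ENSMUSG00000055653.13, minus strand of chromosome X, 52272426 to 52613950) had 16, 17, 10 and 17 counts before regeneration and 45, 215, 7 and 16 after it in control. The groups overlapped, and library 2 after regeneration alone stood at 12.3 CPM where the others had 0.382 to 2.82. The log2 fold change of 2.29 ± 1.01 was not called by edgeR (adjusted p 0.187), and it was 0.67 without that library. DESeq2 called it (adjusted p 0.0459).

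Alb had 91226, 78780, 88625 and 87982 CPM before regeneration in control libraries 1 to 4. After it the values were 134491, 92353, 107022 and 93512 CPM. The groups did not overlap, but by a narrow margin, and the log2 fold change of 0.30 ± 0.187 was not called (edgeR adjusted p 0.362). As a share of all counts, with no TMM scaling, Alb went from 8.35% ± 0.496 to 10.7% ± 1.21 (n = 4, exact two-sided permutation p 0.0286, the smallest that 4 against 4 can give, and 0.0571 adjusted over 4 comparisons). Gc lay between 6818 and 7189 CPM before and between 6410 and 8122 CPM after regeneration, with a log2 fold change of 0.01 ± 0.136 (edgeR adjusted p 0.992). Afm, a carrier of vitamin E, lay between 211 and 299 CPM before and between 222 and 299 CPM after, with 0.04 ± 0.170 (0.918). The carriers Gc and Afm thus gave values close to 0, with errors of 0.136 and 0.170 beside 0.187 for Alb, so a small change is not excluded. Over the alternatives the log2 fold changes ran from -0.05 to 0.12 for Gc and from -0.05 to 0.18 for Afm.

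In HIRA KO livers the same comparison gave 1 call, Afp, which rose from 2.42 ± 0.275 to 4.26 ± 1.56 CPM (n = 4). Of all genes, 12% were called, 6.48% higher and 5.53% lower. The groups overlapped for all 8 members, where 16.1% of all genes did not overlap, and the median log2 fold change of the 6 members with reads in every group was -0.03 (0.40 without library 1 before regeneration), that of all genes 0.02. Afp had 39, 41, 36 and 39 counts before and 133, 113, 74 and 45 after regeneration, or 6.03, 5.02, 3.51 and 2.50 CPM after. Libraries 1 to 3 after regeneration lay above every library before it and library 4 among them. The log2 fold change was 0.82 ± 0.247 with an edgeR adjusted p of 0.0387. This call was lost in 6 of 8 fits without a single library (log2 fold change 0.63 to 1.02 over all 8, edgeR adjusted p 0.00890 to 0.121), namely without any 1 of the 4 libraries before regeneration or without library 1 or 2 after it. It was lost in a fit of the 8 HIRA KO libraries alone (0.83, edgeR adjusted p 0.105) and without the HIRA KO libraries that lay apart (0.32, 0.548).

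H19 in HIRA KO had 68, 9, 2 and 2 counts before regeneration and 289, 94, 377 and 53 after it, which is 3.60, 0.600, 0.136 and 0.125 CPM before and 13.1, 4.17, 17.9 and 2.95 CPM after. Only library 1 before regeneration reached into the range after it. The log2 fold change was 3.02 ± 0.958 with an edgeR adjusted p of 0.0577. It was called without that library (5.04, edgeR adjusted p 0.0104), without library 4 after regeneration (3.34, 0.0441), without the libraries that lay apart (6.28, 0.0438), by DESeq2 (3.10, 0.0117) and by limma on log2(FPKM + 0.1) (3.14, 0.0284).

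Igf2 in HIRA KO had 4, 0, 1 and 0 counts before and 25, 45, 3 and 2 after regeneration, with a log2 fold change of 3.39 ± 1.09 (edgeR adjusted p 0.0617). Nearly all of these reads came from libraries 1 and 2 after regeneration, both among the libraries that lay apart. Igf2 was called without library 1 before regeneration (edgeR adjusted p 0.0476) or without library 3 (0.0395) or 4 (0.0288) after it, and by DESeq2 (0.0297). Igf2os, the antisense transcript within Igf2, had 9 and 9 counts in the same 2 libraries, 1 in each of the other 2 and 0 in all 4 before regeneration, and was called higher (edgeR adjusted p 0.0265). Whether counting used the strand is not given in the sources used here, so the reads of Igf2 and Igf2os over their 98 shared exon bases cannot be told apart.

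The other members gave no call in HIRA KO. Alb went from 115033 ± 16760 to 110028 ± 10466 CPM (log2 fold change -0.06 ± 0.187, edgeR adjusted p 0.871), and its share of counts from 11.2% ± 1.84 to 11.7% ± 1.07 (n = 4, exact permutation p 0.686). The log2 fold changes of Gc, Afm and Gpc3 were 0.01, -0.25 and -0.10 (edgeR adjusted p 0.988, 0.371 and 0.968). Dlk1 had 2 counts in all before and 2 after, for which no fold is given.

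**Figure D2:**
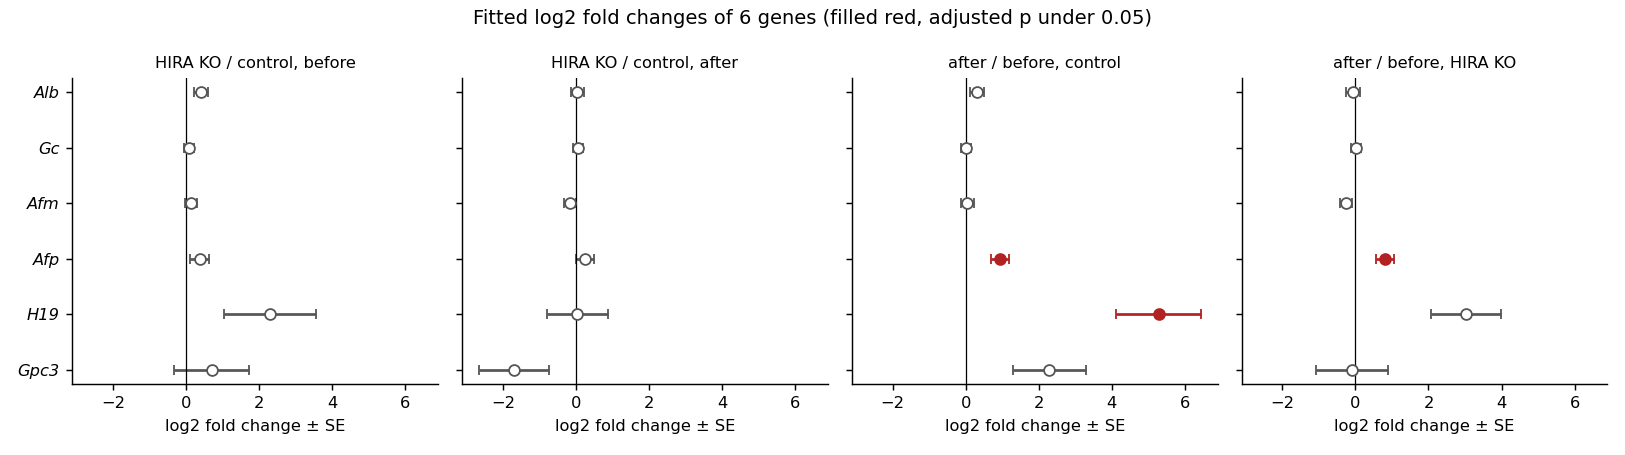
Fitted log2 fold change with its SE (horizontal axis) for 6 members in 4 comparisons, from edgeR. Filled red points are called at an adjusted p under 0.05 and open points are not. The called values are Afp at 0.94 and H19 at 5.28 in control and Afp at 0.82 in HIRA KO. Igf2 and Dlk1 are left out because groups without reads give no fold.

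Afp was also set against Alb within each library, a ratio that needs no scaling between libraries. Before regeneration the ratio in ppm (Afp counts over Alb counts) ran from 14.8 to 27.3 in control and from 15.2 to 25.6 in HIRA KO. After it the ratio ran from 24.2 to 45.2 in control and from 23.5 to 53.5 in HIRA KO. The mean of the log2 ratio was 0.67 higher after than before in control and 0.79 higher in HIRA KO, each at p 0.0571 by the exact two-sided permutation test (n = 4 against 4, 0.114 adjusted over 4 comparisons). The lowest library after regeneration lay within the range before it in both genotypes. On FPKM these differences were 0.25 and 1.40.

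**Figure D3:**
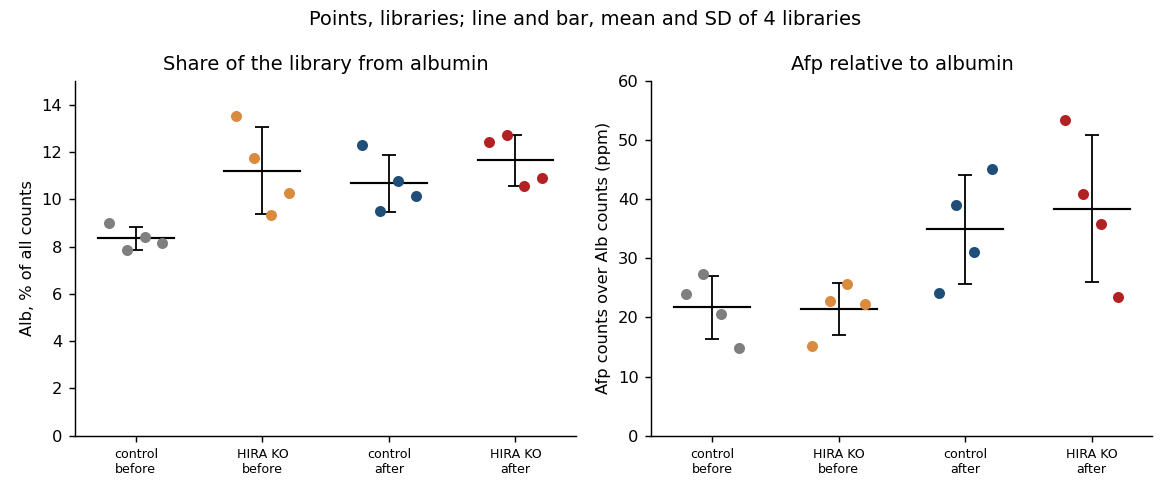
Left, percent of all counts of a library that came from Alb. Right, Afp counts over Alb counts in ppm. Points are libraries, lines the means and bars the SD of 4 libraries. The albumin share of the control libraries before regeneration (8.35% ± 0.496) lies below that of all other libraries, while the Afp ratio is higher after regeneration in most libraries of both genotypes.

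The second question was whether loss of HIRA changed these genes. Before regeneration none of the 8 members was called, where 0.0391% of all genes were called (9 of 23018). At an unadjusted p under 0.05 there was 1 member, Alb, and DESeq2 called 0 of the 6 members to which it gave an adjusted p. Alb had 135396, 119613, 95634 and 109487 CPM in HIRA KO libraries 1 to 4 and at most 91226 in control. All 4 lay above all 4 controls, and Alb was the only member without overlap, where 8.07% of all genes did not overlap. The log2 fold change was 0.41 ± 0.187 with an edgeR adjusted p of 0.363. As a share of counts, Alb took 11.2% ± 1.84 in HIRA KO and 8.35% ± 0.496 in control (n = 4, exact two-sided permutation p 0.0286, 0.0571 adjusted over 4 comparisons). The difference of 2.87 percentage points was 1.44 without the HIRA KO libraries that lay apart, which were also the 2 with the most Alb, and 0.80 as a share of FPKM. Over the whole family the share was 12.0% ± 1.86 and 9.05% ± 0.497.

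For the other carriers the log2 fold changes before regeneration were 0.07 ± 0.136 for Gc, 0.13 ± 0.170 for Afm and 0.37 ± 0.256 for Afp (edgeR adjusted p 0.860, 0.802 and 0.566). H19 gave 2.29 ± 1.26 (0.462), and this value came from library 1, since without it the log2 fold change was 0.29, and without the libraries that lay apart -0.80. Gpc3 gave 0.69 ± 1.03 (0.823), with 72, 13, 4 and 4 counts in HIRA KO, and -0.82 without the same library. Library 1 was thus the highest of its group for Alb, H19, Igf2 and Gpc3 at once. In this library the 8 stellate cell markers summed to 676 CPM, against 227 to 252 in control and 251 to 487 in the other HIRA KO libraries before regeneration. These markers did not move alike. Before regeneration Lrat lay between 10.5 and 18.3 CPM in HIRA KO and between 13.1 and 16.0 in control, while the means of the others were higher in HIRA KO. The 6 mesothelial markers summed to 16.8 CPM in library 1, against 1.56 to 5.07 in the other 7 libraries before regeneration. The 7 cholangiocyte markers summed to 149 CPM in it, against 48.5 to 73.3 in control and 58.2 to 98.6 in the other HIRA KO libraries before regeneration. The part of these cell types in the values of H19 and Gpc3 was not tested. In bulk tissue, more cells of a type and more RNA per cell cannot be told apart.

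After regeneration none of the 8 members was called, where 0.491% of all genes were called. Igf2 was the only member at an unadjusted p under 0.05, and DESeq2 called 0 of the 6 members to which it gave an adjusted p. The groups overlapped for all 8 members, where 8.1% of all genes did not overlap. The median log2 fold change of the 6 members with reads in every group was 0.04, that of all genes 0.02. Igf2 had 25, 45, 3 and 2 counts in HIRA KO and 7, 2, 2 and 1 in control, with a log2 fold change of 2.29 ± 0.956 (edgeR adjusted p 0.267), and it was above every control in 2 of 4 libraries. Without the HIRA KO libraries that lay apart it was -0.36. Afp and Alb gave 0.24 ± 0.241 and 0.04 ± 0.187 (edgeR adjusted p 0.674 and 0.946), and H19 0.03 ± 0.834 (0.991). Gpc3 gave -1.70 ± 0.966 (0.423), which was -0.05 without control library 2.

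The difference of the HIRA KO effect between the times, the interaction in the same fit, was called for none of the 8 members and for 0% of all genes. A gene called after against before regeneration in only 1 genotype, here or in the lists below, was thus not shown by this fit to differ between genotypes. No member was at an unadjusted p under 0.05, where 1568 of all genes were. DESeq2 called 67 genes and none of the members to which it gave an adjusted p. The fitted value was -2.39 ± 1.41 for Gpc3 (edgeR adjusted p 0.781), between -2.83 and -0.52 over the alternatives. It was -2.26 ± 1.52 for H19 (0.809) and -0.12 ± 0.350 for Afp (0.975), and these changed sign over the alternatives, from -2.72 to 1.00 for H19 and from -0.62 to 0.69 for Afp, so for Afp the rise in control and the rise in HIRA KO were not shown to differ.

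Of 18 factors that regulate the fetal liver program, 0 rose and 1 fell after regeneration in control, where 4.17% of all genes fell. In HIRA KO 0 rose and 3 fell, where 5.53% of all genes fell. The median log2 fold changes were -0.12 and -0.24, those of all genes 0.00 and 0.02. Cebpa, a factor of hepatocyte differentiation, fell in control from 394 ± 12.8 to 209 ± 73.8 CPM (log2 fold change -0.91, edgeR adjusted p 0.0110). The value of Cebpa in HIRA KO was -0.57 (0.0918). Zhx2, the repressor of Afp and H19, fell in HIRA KO from 24.4 ± 1.89 to 17.5 ± 2.70 CPM (-0.48, 0.0213). Its value in control was -0.24 (0.271), and the interaction gave no call (0.832). Zbtb20, the other repressor of Afp, gave 0.04 and -0.13 (0.929 and 0.708). In HIRA KO Nr5a2, a nuclear receptor that activates Afp, fell from 53.7 ± 3.56 to 41.3 ± 2.44 CPM (-0.38, 0.0239). The value of Nr5a2 in control was -0.29 (0.0817). Between genotypes, Nr5a2 was the only called factor, lower in HIRA KO after regeneration (-0.48, edgeR adjusted p 0.0464). This call was lost in 14 of 16 alternatives (adjusted p 0.00164 to 0.221 over all 16). It was kept only by DESeq2 and by edgeR without HIRA KO library 4 after regeneration. Before regeneration 0 of 18 were called. The call of Cebpa was kept in all 16 alternatives, while in HIRA KO that of Zhx2 was lost in 8 and that of Nr5a2 in 11.

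Among 24 other imprinted genes tested, 3 rose and 1 fell in control and 0 rose and 1 fell in HIRA KO after regeneration, beside 6.04% and 4.17% of all genes in control and 6.48% and 5.53% in HIRA KO. Peg3, a zinc finger gene expressed from the paternal copy, rose from 4.34 to 7.93 CPM (0.87 on the log2 scale, edgeR adjusted p 0.0354) and Impact, a regulator of translation, from 14.2 to 22.5 CPM (0.67). Airn, a non-coding RNA, was called higher as well at a mean under 1 CPM. In HIRA KO the log2 fold changes of Peg3, Impact and Airn were 0.20, 0.29 and 0.75 (edgeR adjusted p 0.666, 0.327 and 0.246). Slc38a4, an amino acid transporter, fell in both genotypes, from 1229 ± 156 to 540 ± 156 CPM in control (-1.19) and by 1.11 on the log2 scale in HIRA KO. The calls of Slc38a4 were kept in all 16 alternatives, while those of Peg3, Impact and Airn were lost in 7, 5 and 4.

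Meg3 and Rian, the non-coding RNAs of the Dlk1 locus, were the genes most like Gpc3 over the 16 libraries. The Pearson correlation of log2(CPM + 1) with Gpc3 was 0.90 for Meg3 and 0.93 for Rian among 13176 genes with a mean of at least 1 CPM. The libraries share their groups, so these are descriptions. Meg3 had 16.7, 39.3, 0.872 and 3.17 CPM in the control libraries after regeneration, with library 2 the highest as for Gpc3, and 12.0 CPM in library 1 of HIRA KO before regeneration, where the others of that group had 0.748 to 3.73. Neither was called after against before regeneration in control (edgeR adjusted p 0.134 for Meg3 and 0.0960 for Rian). By the same measure the genes most like Afp were Nid1 (0.91), Sectm1a (0.90) and Chil3 (0.90), and those most like H19 were Emilin1, Armcx4 and Hebp2 (each 0.92). For Alb they were Il20rb, Spink5 and Slc22a26 (0.82, 0.81 and 0.81), for Afm Dusp6, Ppp2r2a and Eefsec (0.88, 0.83 and 0.75), and for Gc Gng5 and Fbxl6 (0.80 and 0.76). Nid1 and Emilin1 encode proteins of the extracellular matrix and Chil3 a lectin of myeloid cells. Between members, where the same measure was taken apart, the highest values were 0.70 for Afp with H19, 0.65 for H19 with Gpc3 and 0.64 for Alb with Gc.

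**Figure D4:**
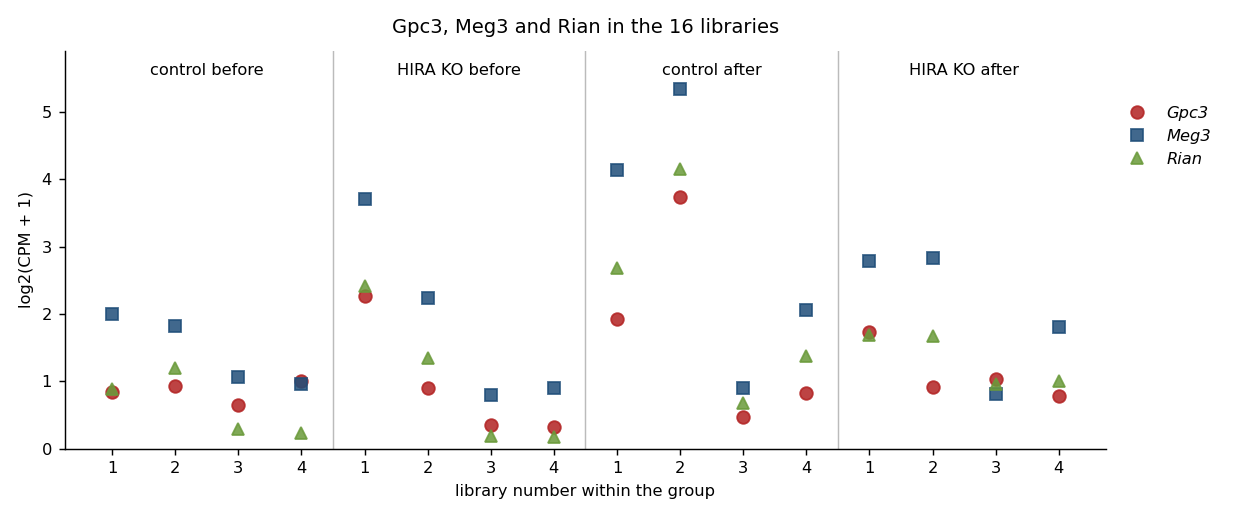
Levels of Gpc3, Meg3 and Rian as log2(CPM + 1) in the 16 libraries, in the order of group and library number. The 3 genes are highest together in library 2 of control after regeneration (12.3 CPM for Gpc3 and 39.3 CPM for Meg3), and high together in library 1 of HIRA KO before regeneration.

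Of 14 oncofetal genes other than the members, 3 rose in control and 4 in HIRA KO after regeneration and none fell, where 6.04% and 6.48% of all genes rose. The glycolytic enzymes Aldoa and Hk2 rose in both genotypes (log2 fold changes 0.57 and 1.35 in control, 0.63 and 1.12 in HIRA KO). Pkm rose in HIRA KO (0.91), as did Igf2bp3 (2.55, at a mean of 0.384 CPM), an RNA-binding protein of the Igf2 transcript. Spp1, a matrix protein of bile ducts and macrophages, rose in control (0.60). In control Pkm gave 0.73 and Igf2bp3 -0.68 (edgeR adjusted p 0.0975 and 0.679). In HIRA KO Spp1 gave 0.49 (0.0776). The call of Aldoa in HIRA KO was kept in all 16 alternatives, those of Aldoa in control and Hk2 were lost in 1 or 2, and those of Igf2bp3, Pkm and Spp1 in 4, 7 and 9. None of the 14 was called between genotypes.

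Other abundant products of hepatocytes, secreted proteins and the urea cycle enzymes Cps1 and Ass1, moved in both directions. Of these 18 genes, 2 rose and 2 fell in each genotype after regeneration, where 6.04% and 4.17% of all genes did so in control and 6.48% and 5.53% in HIRA KO. Hpx, the heme carrier, rose from 4696 ± 1554 to 13637 ± 2763 CPM in control (log2 fold change 1.54, edgeR adjusted p 0.00131) and rose in HIRA KO too (1.47). Rbp4, the retinol carrier, fell in both (-0.76 and -0.72). Ambp rose in both (0.53 and 0.69), Apoa2 fell in control (-1.14) and Ttr in HIRA KO (-0.71). Apoa2 gave -0.75 in HIRA KO and Ttr -0.27 in control (edgeR adjusted p 0.142 and 0.511). The calls of Hpx and Rbp4 in both genotypes and of Ambp in HIRA KO were kept in all 16 alternatives, while that of Ambp in control was lost in 7, of Apoa2 in 7 and of Ttr in 9. None of the 18 was called between genotypes at either time.

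A list of 23 partners of the members held genes of the signals of Igf2 and Gpc3, Notch1, a receptor whose ligands are related to Dlk1, and Fcgrt, Lrp2 and Cubn, receptors that recycle or take up albumin or Gc. Of these, 0 rose and 1 fell in control and 0 rose and 5 fell in HIRA KO after regeneration, where 4.17% and 5.53% of all genes fell. Igfbp3, a carrier of insulin-like growth factors, fell in both (-1.26 and -1.35). In HIRA KO Igfbp1 fell from 202 ± 114 to 39.3 ± 33.9 CPM (-2.36, edgeR adjusted p 0.0493), Notch1 by 0.82 and Insr, the insulin receptor, by 0.44 on the log2 scale. Gpc4, a glypican that lies next to Gpc3, fell by 0.32. The call of Igfbp3 in control was kept in all 16 alternatives and lost in 1 in HIRA KO, and those of Notch1, Insr, Igfbp1 and Gpc4 were lost in 2, 8, 10 and 10. Of 15 neighbours of the members on the chromosomes, 0 were called in control, where 10.2% of all genes were called. In HIRA KO Rassf6 and Gpc4 fell and Igf2os rose, where 5.53% of all genes fell and 6.48% rose. In control the log2 fold changes of Rassf6, Gpc4 and Igf2os were -0.23, 0.06 and 1.61 (edgeR adjusted p 0.426, 0.752 and 0.533). The call of Rassf6 was kept in all 16 alternatives and that of Igf2os was lost in 9 of 15. Slc4a4, a neighbour of Gc, was lower in HIRA KO than in control after regeneration (-0.73, edgeR adjusted p 0.0492), the only neighbour called between genotypes, and this call was lost in 12 of 16 alternatives (0.00345 to 0.214).

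Proliferation was the setting in which these values were taken. All 10 cell cycle genes of the list rose in both genotypes (median log2 fold change 4.86 in control and 3.23 in HIRA KO). Of all genes, 6.04% rose in control and 6.48% in HIRA KO. In control each of these calls was kept in all 16 alternatives. In HIRA KO those of Mki67, Cdk1 and Aurkb were kept in all 16. Those of Top2a and Ccna2 were lost in 3, Bub1 in 4, Birc5 in 5, Ccnb2 and Plk1 in 6 and Ccnb1 in 10. The proliferation marker Mki67 had 11.8, 37.8, 71.0 and 77.5 CPM in control libraries 1 to 4 after regeneration and 24.4, 10.5, 72.2 and 27.0 CPM in HIRA KO. H19 was highest in control libraries 1 and 2, which had the least Mki67 of their group, and in HIRA KO library 3, which had the most. The 7 Kupffer cell markers summed to 147 to 388 CPM in the 8 libraries before regeneration and to 611 to 963 CPM in the 8 after it. The 8 stellate cell markers summed to 227 to 252 CPM in control before regeneration and to 178 to 418 after it, and in HIRA KO to 251 to 676 and 328 to 486. These markers did not move alike. In control the means of Col3a1 (24.9 before and 65.4 CPM after), Col1a1, Col1a2, Des and Acta2 were higher after regeneration. Those of Dcn (132 and 118 CPM), Reln (38.9 and 30.6) and Lrat (14.7 and 14.1) were lower. In HIRA KO the means of Col3a1, Col1a1, Col1a2 and Lrat were higher after regeneration and those of Dcn, Reln, Des and Acta2 lower. The B cell markers summed to 1.45 to 3.43 CPM before and 4.13 to 6.65 after regeneration in control, and to 2.18 to 8.78 and 4.74 to 7.95 in HIRA KO. The T and NK cell markers summed to 1.34 to 2.23 CPM before and 2.75 to 3.27 after regeneration in control, and to 1.22 to 4.07 and 2.23 to 4.23 in HIRA KO. Of these, Stat4 had a lower mean after regeneration in control (0.417 and 0.360 CPM) and the others a higher one. Cholangiocyte marker sums in control were 48.5 to 73.3 CPM before and 72.1 to 115 after regeneration. In HIRA KO they were 58.2 to 149 and 81.4 to 136. Endothelial marker sums were 163 to 206 and 110 to 176 CPM in control, and 146 to 209 and 129 to 146 in HIRA KO. The part of these cell types in the rise of Afp and H19 was not tested.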

How the data were processed

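RNA was measured in 16 mouse liver libraries, made with a directional kit after poly-A selection. The authors used Trim Galore where needed, STAR with the build mm10 and, by their methods, HOMER for the counts, while the processing notes of the submitters name STAR, HTSeq and Cufflinks. The annotation release is not given in the sources used here. The authors deposited whole-number counts per gene and a table of FPKM, whose empty cells were read as 0.

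Genes with at least 10 counts in total were tested with edgeR (version 4.0.16, R 4.3.3): TMM scaling, 1 fit of 4 group means to all libraries, robust quasi-likelihood test, Benjamini-Hochberg adjustment over 23018 genes. SE is approximate, the size of the log2 fold change over the root of its F statistic. CPM use TMM-scaled library sizes. Shares and ratios were compared by exact permutation tests (scipy 1.17.1). Alternatives were DESeq2 (1.42.0), limma on log2(FPKM + 1) or with 0.1 (3.58.1), other scalings, no filter, only the groups compared, and libraries left out. The authors give 2 mice per deletion approach in each group, but no column names its mouse or approach. The p-values measure the spread between the libraries of a group, across both approaches. Replicate pairs differed by a chi-square of 12.4 to 135 per degree of freedom, so none was a single library deposited again. The total counts of 15103059 to 21738619 set the precision. The floor of 3 counts covers counting error only for a group without reads, not for the group it is compared with. The fit was also checked on simulated counts for all tested genes. Known changes of 4-fold were placed only in genes with a mean of at least 1 CPM. They were placed only in HIRA KO against control before regeneration. The check therefore does not cover Igf2 and Dlk1, smaller changes or the regeneration comparisons.

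Coordinates are from GENCODE M21 on GRCm38, whose IDs matched 54673 of 55421, version included, and promoters from RefSeq on GRCm38.p6. The 8 members and the gene lists were chosen with earlier results of these data known. Named were all members, the 3 genes most correlated with each member of at least 1 CPM, and called genes of the lists, at most 4 per list, with a mean of at least 1 CPM. Genes under that mean, a further called gene of a list and the values of Zbtb20, Meg3, Rian and Mki67 were added after their values were seen. Some genes that met the rule are not reported here.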

Additional observations from a re-analysis of the deposited data

Results flagged for a closer look

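In 30 groups of 4 libraries with reads (a member in a group), 5 held a library far from the other 3 by Dixon's test. Chance flags about 5% of groups of normally distributed values. Low counts are not such values, so that share is no baseline for these groups. For Afm this was library 2 of control after regeneration, low at 222 CPM. For Gc it was library 2 of HIRA KO before regeneration, high at 7975 CPM. H19 was high in library 1 of HIRA KO before regeneration at 3.60 CPM (68 counts). Igf2 was high in library 1 of control after regeneration at 0.438 CPM, which is 7 counts, and Dlk1 in library 2 of HIRA KO before regeneration at 0.133 CPM, which is 2 counts. The last 2 rest on single-digit counts, and a group with reads in only 1 library, as for Dlk1 here, is always flagged.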

How the results depend on the processing

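No paired analysis was possible because the columns of the tables carry neither the mouse nor the replicate numbers of the labels. None of the 8 members was called between HIRA KO and control at either time, or for the difference between the times, under any alternative, and H19 was called in control after against before regeneration in all of them. The number of members called after against before regeneration in control was 2, 4 by DESeq2 (Igf2 and Gpc3 added), 1 by limma on log2(FPKM + 1) and 1 on log2(FPKM + 0.1), and 1 to 2 without single libraries. In HIRA KO it was 1, 3 by DESeq2, 2 by limma on log2(FPKM + 0.1), 0 in a fit of only the groups compared, and 0 to 3 without single libraries. Of all genes, the 9 called before regeneration became 36 without a filter, 375 by DESeq2, 5 and 25 by limma (pseudocount 1 and 0.1), 5 without the HIRA KO libraries that lay apart, and 1 to 33 without single libraries. The 113 called after it became 71 with scaling that left out the 8 members, 910 by DESeq2, 61 and 68 by limma, 0 in a fit of only the groups compared (an edgeR fit with fewer libraries), 15 without the libraries that lay apart and 5 to 452 without single libraries. The 2350 called for regeneration in control became 3858 without the libraries that lay apart and 1530 to 2357 without single libraries. The 2764 in HIRA KO became 1431 in a fit of only the groups compared and 1678 to 2771 without single libraries. The 0 called for the difference between the times became 1 without a filter, 67 by DESeq2, 1 by limma on log2(FPKM + 0.1), and 0 to 7 without single libraries. The cause was not tested. DESeq2 gave Dlk1 no adjusted p in any comparison and Igf2 none between genotypes, and Dlk1 fell under the count minimum in some fits with fewer libraries. Counts of at most 133 per library for Afp, 45 for Igf2 and 4 for Dlk1 limit what these libraries can show of the fetal members.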
